A study of Arabidopsis thaliana with 10 samples.

Results

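The xyloglucan endotransglucosylase/hydrolase (XTH) genes of Arabidopsis thaliana were examined in seedlings after gamma irradiation. The family was taken whole, as the 33 loci named XTH1 to XTH33, and all 33 had a probe on the array, with 42 probes in all. The family was selected on the measured gamma-minus-mock difference of XTH21, which was known from earlier results of these data, so the values of XTH21 are given as a description with no test. Of the 33 genes, 29 passed a filter (signal well above background on 5 or more of 10 arrays) and were tested among 23666 genes. The gamma group was whole seedlings of the ecotype Col-0 that received 200 Gy of gamma radiation from a Co-60 source at 50 Gy per h over 4 h. The mock group was seedlings of the same ecotype given a mock exposure. Both were grown on plates under long days, were 14 days old and were sampled 24 h after the exposure. There were 5 such experiments, on separate days and separate plants, and each gave 1 gamma and 1 mock array of a single-colour Agilent design. The titles call the plants WT in experiments 1 and 2 and Col-0 in experiments 3, 4 and 5, which are of a later year.

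XTH enzymes work outside the cell, in the wall. They cut the backbone of xyloglucan, the hemicellulose that coats and links cellulose microfibrils, and most rejoin the cut end to another xyloglucan chain, while a few members hydrolyse it instead. Through this remodelling they are tied to the loosening of the wall during cell expansion, to the building of new wall, and to responses to touch, shade and hormones. By sequence the family is commonly split into groups that follow the numbering, of which XTH31 and XTH32 are the members known for hydrolase activity. Several members, among them XTH12 to XTH14, XTH17 to XTH21 and XTH26, are known from roots.

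Levels are given as the processed signal of a probe divided by the 75th percentile of its array, and called relative signal. Probes differ in how well they bind, so levels are compared between arrays for 1 probe and not between genes. Changes are given as gamma minus mock on the log2 scale, with the standard error of a limma fit that keeps the experiment as a block. Between 71.7% and 76.6% of probes were well above background on each array, with array 75th percentiles of 1645 to 2641. The 2 arrays of an experiment shared a slide and a scan, with gamma always at position 2 and mock at position 1, so the position on the slide and the treatment cannot be told apart. Over all genes the median change was -0.02. In whole seedlings, fewer cells of a type and less RNA per cell cannot be told apart.

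XTH1, XTH2 and XTH3 were not well above background on any array, and their relative signal was at most 0.00607 on gamma arrays and 0.0043 on mock arrays. XTH29 was well above background on 1 of 5 gamma arrays and 2 of 5 mock arrays. These 4 genes were not tested. Of the 28 other tested genes besides XTH21, all were well above background on 10 of 10 arrays.

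XTH21 is left out of the counts that follow, since its difference chose the family. Of the 28 other members in the fit 2 passed the threshold of an adjusted p of 0.05 (limma, Benjamini-Hochberg over all genes): XTH28 rose and XTH5 fell. Over all genes tested 1.68% rose and 2.33% fell, 4.01% in either direction. The median change of the 28 members was -0.10, with 12 estimates above 0 and 16 below, where 53.8% of all genes were below. In 7 members gamma was below mock in every experiment, against 13.5% of all genes, and in 2 members it was above in every experiment, against 10.2%. The 7 were XTH5, XTH6, XTH9, XTH15, XTH25, XTH30 and XTH33, and the 2 were XTH7 and XTH28. In none of the 28 did every gamma array lie below every mock array, or above it, a pattern that 1.13% and 0.913% of all genes showed. The count of 2 was 1 without experiment 1, 3 without experiment 2, and 0 without experiment 3, 4 or 5 or without the block, and 9 members had an unadjusted p under 0.05 in limma, beside 22.0% of all genes.

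**Figure D1:**
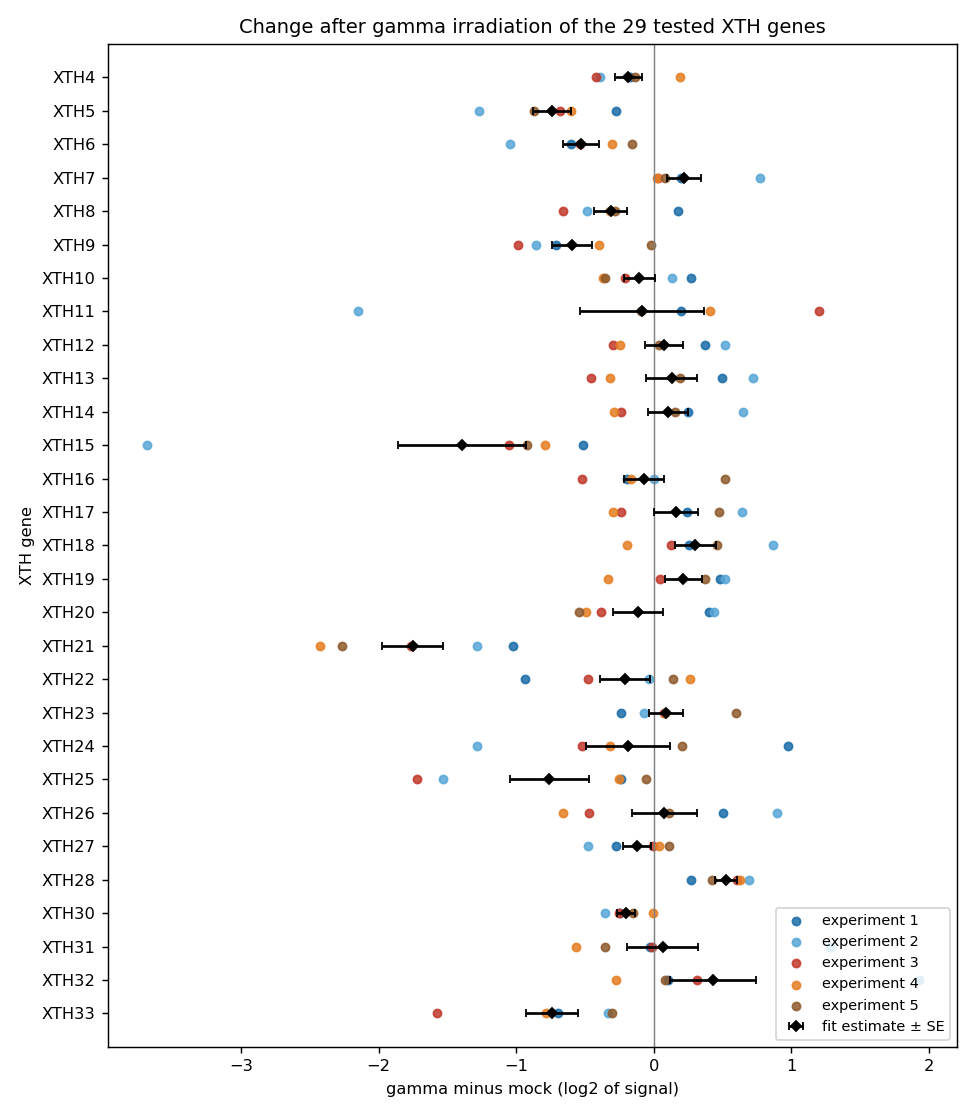
Gamma minus mock on the log2 scale (x axis) for the 29 tested XTH genes (y axis); coloured points are single experiments and black diamonds the limma estimate with its standard error. XTH21 (-1.75) and XTH15 (-1.39) have the lowest estimates and XTH28 (0.53) the highest, and for XTH15 the point of experiment 2, at -3.68, lies far from the other 4.

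XTH21 (AT2G18800), an enzyme of roots known from its loss to affect primary root growth, was the member with the lowest estimate. Its brighter probe had a relative signal of 0.0322, 0.0612, 0.0193, 0.00734 and 0.0106 on gamma arrays 1 to 5, against 0.0656, 0.149, 0.0655, 0.0394 and 0.0509 on mock arrays 1 to 5. Gamma was lower in every experiment, though the groups overlapped: gamma array 2 was above mock arrays 4 and 5. The change was -1.75 ± 0.22 SE (n = 5 pairs), a level 3.37-fold lower after irradiation, and the gamma array of experiment 4 was not well above background. The differences were -1.02 and -1.28 in the earlier experiments 1 and 2, and -1.77, -2.43 and -2.27 in the later experiments 3 to 5.

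The other probe of XTH21 did not follow the brighter one. It had a relative signal of 0.0277, 0.0318, 0.154, 0.00749 and 0.00786 on gamma arrays 1 to 5, against 0.0172, 0.0489, 0.0297, 0.00958 and 0.0108 on mock arrays. Gamma was higher in experiments 1 and 3 and lower in 2, 4 and 5, and both arrays of experiment 4 were not well above background. Its change was 0.33 ± 0.47 SE, and the mean of both probes changed by -0.71. The lower level of XTH21 after irradiation therefore rests on 1 of its 2 probes. Which part of the transcript each probe binds was not analysed here.

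**Figure D2:**
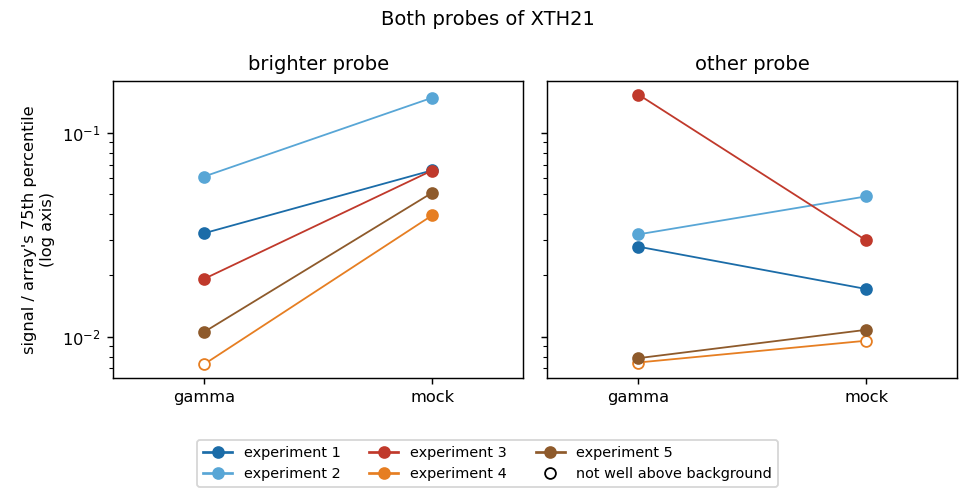
Relative signal (log axis) of the brighter and the other probe of XTH21 on gamma arrays (left of each panel) and mock arrays (right), with lines joining the arrays of an experiment and open points not well above background. All 5 lines of the brighter probe are lower at gamma; the other probe is higher at gamma in 2 experiments and reaches 0.154 on gamma array 3.

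The other 5 genes with more than 1 usable probe gave close values. The probes of XTH9 gave -0.59 and -0.58, those of XTH15 -1.39 and -1.47, and those of XTH4 -0.19 and -0.13. The probes of XTH27 gave -0.12 and -0.06, and the 5 probes of XTH24 lay between -0.20 and -0.16. The rest of the tested members had a single probe each, so that no second probe bears on their values, XTH5 and XTH28 included.

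XTH28 (AT1G14720), known for a part in stamen filament growth, was the 1 member that rose. Its relative signal was 3.91, 3.59, 3.44, 3.44 and 2.82 on gamma arrays 1 to 5, against 3.23, 2.22, 2.26, 2.22 and 2.10 on mock arrays. Gamma was higher in every experiment, and the single overlap came from mock array 1, which was above gamma array 5. The log2 change of XTH28 was 0.53 ± 0.08 SE over 5 pairs, 1.44-fold higher (limma adjusted p = 0.0237). The change was close in both periods, at 0.55 in the later and 0.48 in the earlier experiments. The call was lost without experiment 3, 4 or 5, with limma adjusted p up to 0.101, and without the block (0.262).

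XTH5 (AT5G13870), a close relative of XTH4 known for transglucosylase activity, fell. Its relative signal was 0.219, 0.238, 0.181, 0.157 and 0.127 on gamma arrays 1 to 5, against 0.265, 0.573, 0.291, 0.239 and 0.231 on mock arrays. Gamma was lower in every experiment, and gamma array 2 overlapped mock array 5. The log2 change was -0.74 ± 0.14 SE over 5 pairs, 1.67-fold lower (limma adjusted p = 0.0447), at -0.72 in the later and -0.77 in the earlier experiments. The call was lost without experiment 1, 3, 4 or 5, with limma adjusted p up to 0.142, and without the block (0.604).

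Among the other members numbered XTH1 to XTH11, the changes were mostly below 0: of 8 tested members, XTH5 included, 1 fell and 0 rose, 7 estimates were below 0 and the median was -0.25. Of all genes 2.33% fell, 1.68% rose and 53.8% had an estimate below 0. XTH9 (AT4G03210), known from the shoot apex and from wood formation, had 11.1, 14.9, 5.68, 7.40 and 13.5 on gamma arrays 1 to 5, against 18.2, 27.1, 11.2, 9.74 and 13.7 on mock arrays. Gamma was below mock in every experiment, by only 0.02 in experiment 5, and the change of -0.59 ± 0.15 SE did not pass (limma adjusted p = 0.0827). XTH6 (AT5G65730) had 0.603, 1.04, 0.787, 1.18 and 1.02 on gamma arrays, against 0.914, 2.14, 1.14, 1.45 and 1.14 on mock arrays. Its change of -0.53 ± 0.13 SE did not pass either (limma adjusted p = 0.0824). XTH4 (AT2G06850), an abundant enzyme of expanding and xylem tissue, gave -0.19 ± 0.10 SE with gamma arrays at 11.2, 20.0, 8.87, 6.78 and 15.5, against mock arrays at 12.6, 26.2, 11.9, 5.95 and 17.0. XTH8 gave -0.31, XTH10 -0.10 and XTH11 -0.09, and XTH7 was the 1 member of these above 0, at 0.22 ± 0.12 SE. XTH11 moved in opposite directions between experiments, at -2.15 in experiment 2 and 1.20 in experiment 3.

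**Figure D3:**
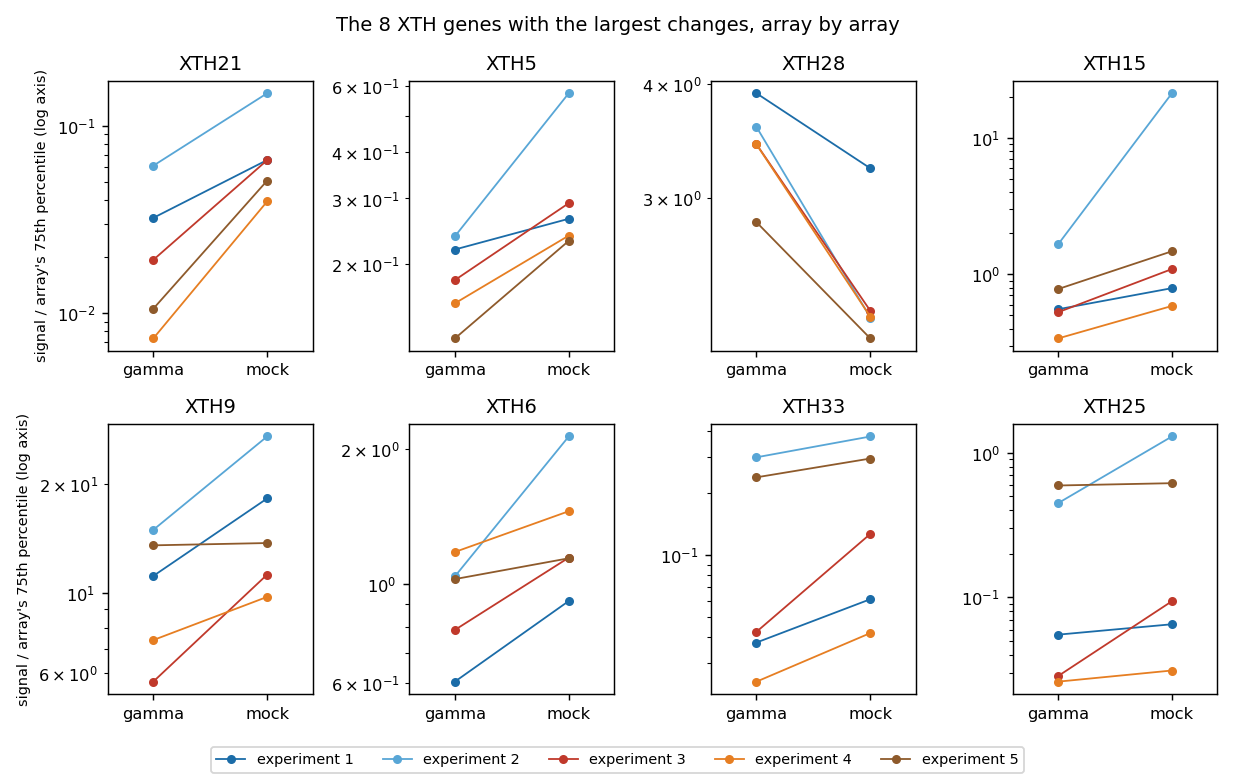
Relative signal (log axis) of the 8 XTH genes with the largest changes, gamma arrays on the left and mock arrays on the right of each panel, with lines joining the arrays of an experiment. In 7 panels every line is lower at gamma and in that of XTH28 every line is higher, and in all 8 the ranges of the groups overlap.

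Members numbered XTH12 to XTH26 went both ways. Of the 14 tested besides XTH21, 0 passed in limma and 2 had an unadjusted p under 0.05, beside 22.0% of all genes. Their estimates were above 0 in 8 and below in 6, where 53.8% of all genes were below, and the median was 0.08. XTH15 (AT4G14130, also XTR7), known for its induction by shade in elongating stems and petioles, had the second lowest estimate of the family. Its relative signal was 0.554, 1.66, 0.527, 0.338 and 0.780 on gamma arrays 1 to 5, against 0.792, 21.3, 1.09, 0.586 and 1.48 on mock arrays. Gamma was lower in every experiment, and mock array 2 stood far above all others, as it did with the other probe of XTH15, at 2.00 against at most 0.105 on the other mock arrays. The change of -1.39 ± 0.47 SE did not pass (limma adjusted p = 0.157), while without experiment 2 it was smaller, at -0.82, and passed (adjusted p = 0.0248). XTH16 and the root gene XTH17 gave -0.07 ± 0.14 SE and 0.16 ± 0.16 SE. XTH25 (AT5G57550) had 0.0553, 0.448, 0.0286, 0.0262 and 0.593 on gamma arrays, against 0.0652, 1.29, 0.0941, 0.0313 and 0.615 on mock arrays, and its change of -0.76 ± 0.29 SE did not pass (limma adjusted p = 0.197).

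Of the 33 members 12 lie on chromosome 4 and 7 on chromosome 5. Some of these lie beside each other, and 2 runs of neighbours were followed array by array. On chromosome 5, XTH12, XTH13, XTH25 and XTH22 follow each other with at most 1 other coding gene between. XTH12 gave 0.08 ± 0.14 SE, XTH13 0.13 ± 0.19 SE, XTH25 -0.76 ± 0.29 SE and XTH22 -0.21 ± 0.18 SE, and 0 of these 4 passed. XTH22 (AT5G57560), the touch gene TCH4, had 10.3, 17.7, 4.24, 3.84 and 42.9 on gamma arrays 1 to 5, against 19.7, 18.1, 5.91, 3.20 and 38.8 on mock arrays, and both groups were highest in experiment 5 and lowest in experiment 4. XTH12 had 0.0769, 0.141, 0.0788, 0.0626 and 0.0924 on gamma arrays, against 0.0593, 0.0986, 0.0969, 0.0741 and 0.0902 on mock arrays. XTH13 had 0.0343, 0.0361, 0.0379, 0.0276 and 0.0282 on gamma arrays, against 0.0243, 0.0219, 0.0519, 0.0344 and 0.0247 on mock arrays. Both were above mock in experiments 1, 2 and 5 and below it in 3 and 4. Whether probes of near-identical members bind each other's transcripts was not tested.

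On chromosome 4 the neighbours XTH24, XTH18 and XTH19 likewise gave 0 calls. XTH24 (AT4G30270, also MERI5), named from meristem tissue, had 14.0, 14.7, 8.05, 9.17 and 20.8 on gamma arrays 1 to 5, against 7.12, 35.7, 11.5, 11.5 and 18.0 on mock arrays. It was higher after irradiation in experiments 1 and 5 and lower in 2, 3 and 4, for a change of -0.19 ± 0.30 SE. The root gene XTH18 (AT4G30280) had 2.83, 12.6, 5.11, 3.42 and 34.1 on gamma arrays, against 2.37, 6.93, 4.67, 3.91 and 24.8 on mock arrays. XTH18 gave 0.30 ± 0.15 SE and XTH19, also of roots, 0.22 ± 0.14 SE, each above mock in 4 of 5 experiments. XTH19 had 0.130, 0.221, 0.147, 0.0877 and 0.228 on gamma arrays, against 0.0929, 0.154, 0.143, 0.110 and 0.176 on mock arrays.

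Members numbered XTH27 to XTH33 held the rise of XTH28, 0 falls and 5 members that did not pass, with a median of -0.03. Of all genes 1.68% rose and 2.33% fell. Of the 6 tested members, 3 had an unadjusted p under 0.05 in limma, beside 22.0% of all genes. XTH33 (AT1G10550), a member held at the membrane by an anchor, had 0.0378, 0.299, 0.0426, 0.0244 and 0.239 on gamma arrays 1 to 5, against 0.0613, 0.377, 0.127, 0.0420 and 0.295 on mock arrays. It was lower in every experiment, at -0.74 ± 0.19 SE, and did not pass (limma adjusted p = 0.0917). XTH27 (AT2G01850, also EXGT-A3), known from tracheary elements of leaf veins, had 9.15, 13.5, 12.7, 8.52 and 18.6 on gamma arrays, against 11.1, 18.8, 12.7, 8.29 and 17.3 on mock arrays, for a change of -0.12 ± 0.10 SE. XTH30 gave -0.20 ± 0.07 SE. The hydrolases XTH31 and XTH32 gave 0.06 ± 0.26 SE and 0.43 ± 0.31 SE, with experiment 2 at 1.28 and 1.93 and the other experiments between -0.56 and 0.31.

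The level of many members differed widely between experiments. Across the 5 mock arrays the highest level of a member was a median of 2.66-fold above its lowest, against 1.65-fold over all genes tested. The mock range was over 4-fold in 9 of 29 members, against 7.83% of all genes. XTH25 ranged 41.4-fold, XTH15 36.4-fold, XTH22 12.1-fold, XTH18 10.5-fold, XTH23 10.4-fold and XTH33 8.98-fold across mock arrays. XTH18, XTH23, XTH25 and XTH33 had their 2 highest levels in experiments 2 and 5 on gamma and mock arrays alike, while the gamma arrays of XTH15 ranged from 0.338 to 1.66. XTH23 (AT4G25810) had 0.550, 2.71, 0.752, 0.479 and 7.13 on gamma arrays 1 to 5, against 0.648, 2.86, 0.713, 0.453 and 4.72 on mock arrays, and both groups were highest in experiment 5. XTH28 ranged 1.54-fold and XTH5 2.48-fold across mock arrays. These are descriptions, since each experiment had a single mock array.

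**Figure D4:**
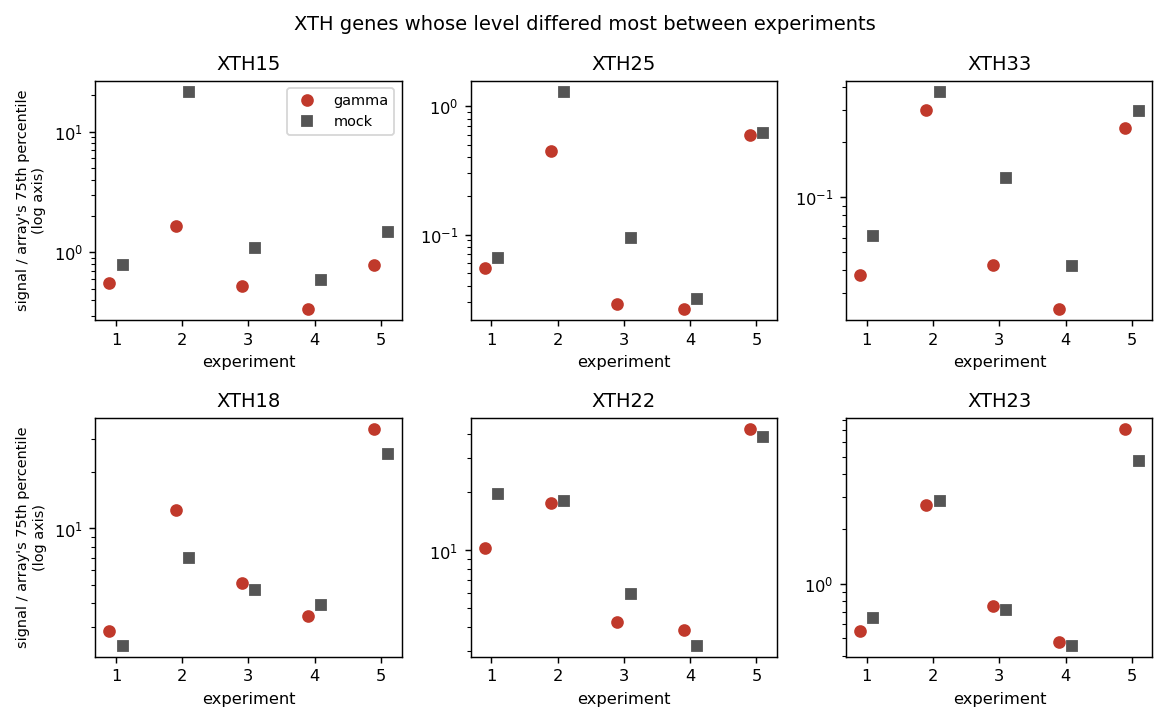
Relative signal (log axis) of 6 XTH genes on the gamma array (circles, left) and the mock array (squares, right) of each experiment. XTH18, XTH22 and XTH23 are highest in experiment 5 in both groups, while XTH15 reaches 21.3 on mock array 2 and 1.66 on gamma array 2.

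The gamma effect was also set side by side in the later and the earlier experiments. The gamma effect of the later experiments minus that of the earlier ones was tested as an interaction: besides XTH21, 0 of 28 members passed (limma, adjusted p of 0.05), beside 0.00423% of all genes, and 8 had an unadjusted p under 0.05, beside 10.5%. Of these 8, 6 were lower in the later experiments: XTH10, XTH12, XTH13, XTH14, XTH20 and XTH26. The root genes XTH18 and XTH19 were above 0 in both periods, at 0.13 and 0.03 in the later and 0.56 and 0.50 in the earlier experiments, and XTH21 was below 0 in both. XTH20 (AT5G48070), a root enzyme also known from the joining of cut stems, had 0.220, 0.226, 0.164, 0.136 and 0.160 on gamma arrays 1 to 5, against 0.167, 0.167, 0.214, 0.192 and 0.233 on mock arrays. Its effect was -0.47 in the later and 0.42 in the earlier experiments, a difference of -0.89 ± 0.11 SE (limma adjusted p = 0.110). The root hair gene XTH26 gave -0.34 in the later and 0.70 in the earlier experiments, and XTH14 gave -0.12 and 0.45. In both, experiments 3 and 4 were below mock, while experiment 5 was above it, at 0.11 for XTH26 and 0.15 for XTH14. XTH6 and XTH27 were the 2 members that were higher in the later experiments, with differences of 0.49 and 0.43. XTH20 and XTH10 were above mock in both earlier and below it in all 3 later experiments, as were 3.72% of all genes, and XTH23 was the reverse, as were 3.49%.

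Markers of root hairs were above mock in most cases in experiments 1 and 2 and below it in 3 and 4. So were these 6 members, but they were picked for a lower effect in the later experiments. Their pattern thus follows largely from that choice, and a link with the markers was not tested. Experiment 5 differed: XTH12, XTH13, XTH14 and XTH26 were above mock and 7 of 8 markers below it. The 8 markers, of which all were measured on all arrays, included COBL9, the expansins EXPA7 and EXPA18 and the wall proteins PRP1, PRP3 and LRX1. Their median difference was 0.17, 0.65, -0.38, -0.30 and -0.23 in experiments 1 to 5, with 6, 8, 0, 0 and 1 of 8 above 0. Over all genes the median difference was -0.016, -0.018, -0.011, -0.014 and -0.004, and the share of all genes above 0 in each was not counted. The summed relative signal of the 8 ranged from 2.16 to 3.87 on gamma arrays, against 1.92 to 5.11 on mock arrays. Over the 5 experiments 0 of the 8 passed, with RHD6 at -0.38 ± 0.14 SE and LRX1 at 0.10 ± 0.12 SE. Among 8 other root markers PLT1 (AT3G20840), which encodes a regulator of stem cells at the root tip, was well above background on 1 of 5 gamma arrays and 5 of 5 mock arrays. PLT1 thus entered the fit through its mock arrays, and it is given with no test: its relative signal was 0.00334 to 0.0116 on gamma arrays, against 0.0213 to 0.0271 on mock arrays. The other 7 did not pass. The root cap gene SMB gave -0.93 ± 0.22 SE (limma adjusted p = 0.0770). With PLT1 included, the median of these 8 was -0.11, -0.05, -0.57, -0.85 and -0.72 in experiments 1 to 5. Their summed relative signal, PLT1 included, ranged from 2.58 to 4.11 on gamma arrays, against 3.82 to 5.68 on mock arrays. No marker tested was at 0, while PLT2 was well above background on 3 of 10 arrays and was not tested. Of 5 leaf markers 0 passed, their median was -0.01, RCA gave 0.10 ± 0.05 SE and GLK1 gave 0.11 ± 0.11 SE. The part of root tissue in the values of XTH21 and the other root members was not tested.

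**Figure D5:**
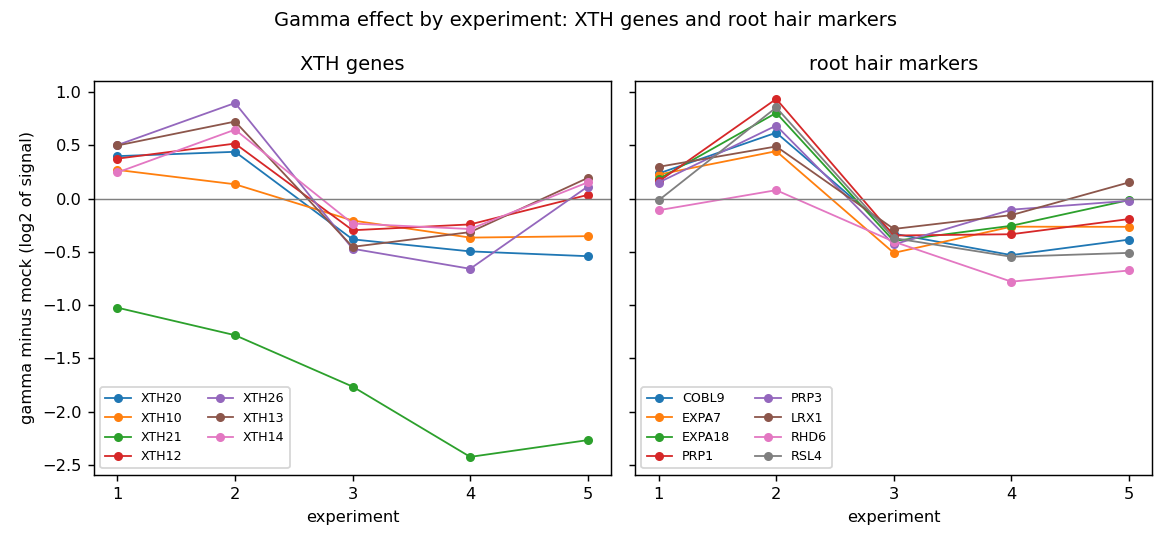
Gamma minus mock on the log2 scale (y axis) in experiments 1 to 5 (x axis) for XTH genes (left) and 8 root hair markers (right). Besides XTH21, the left panel holds the 6 members whose effect was lower in the later experiments at an unadjusted limma p under 0.05. XTH21 is shown there as a description with no test. XTH10, XTH12, XTH13, XTH14, XTH20 and XTH26 and most markers are above 0 in experiments 1 and 2 and below it in 3 and 4; XTH21 is below 0 throughout.

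Other genes of xyloglucan and wall extension were set beside the family. Of 16 genes of xyloglucan synthesis, which make the glucan backbone and add its side chains, 0 passed and their median was 0.02. Of these, 3 had an unadjusted limma p under 0.05, beside 22.0% of all genes. In experiments 1 to 5, 6, 15, 4, 4 and 9 of the 16 were above mock, so most were above it in experiment 2 and below it in 3 and 4. The median difference of all genes lay between -0.018 and -0.004 in the 5 experiments, and the share of all genes above mock in each was not counted. Among the 16, AXY4L, of the family that acetylates xyloglucan, gave 0.29 ± 0.09 SE (limma adjusted p = 0.139), and the xylosyltransferase gene XXT4 gave -0.21 ± 0.08 SE (0.189). Of 5 genes of enzymes that trim xyloglucan 0 passed: the glucosidase gene BGLC3 (AT5G04885) gave 0.29 ± 0.06 SE, above mock in 5 of 5 experiments (limma adjusted p = 0.0507, past the threshold with quantile normalisation, with normexp and where all arrays had to be well above background), and the fucosidase gene AXY8 gave -0.15 ± 0.08 SE.

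Expansins, which loosen the wall without cutting it, gave 0 of 17 past the threshold in limma and 0 at an unadjusted p under 0.05. EXPA2 and EXPA16 were well above background on 0 and 4 of 10 arrays and were not tested. All 17 tested expansins were above mock in experiment 2, while 12 of 17 were below it in experiment 3 and 12 in experiment 4. The median difference of all genes was -0.018, -0.011 and -0.014 in experiments 2, 3 and 4. The share of all genes above mock in single experiments was not counted. EXPA14 gave -0.47 ± 0.19 SE and EXPA17 gave 0.30 ± 0.13 SE. Of 8 cellulose synthase genes 0 passed in limma, also at an unadjusted p under 0.05, and their estimates lay between -0.05 and 0.19, with CESA5 at 0.19 ± 0.12 SE and CESA7 at 0.06 ± 0.06 SE. Their levels were steady between experiments, with a median SD of 0.14 across mock arrays on the log2 scale, against 0.59 for the 29 XTH genes and 0.29 for all genes.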

How the data were processed

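Per the file headers, the deposited intensity of each spot is on a linear scale and was background-subtracted and detrended by the authors with Agilent Feature Extraction 11.0.1.1, while the submitters' processing notes name version 9.1; scaling between arrays is not given in the sources used here. The deposited value table holds linear ratios, mostly centred on each probe's median over the arrays; each column followed that array's probe-centred scanner values with r of at least 0.997, its column medians were 0.925 to 0.992, and its scaling and the centring of the remaining rows are unknown. That table served as an alternative setting.

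The processed signal was divided by the 75th percentile of its array and taken to log2, without control spots and outlier spots, with replicate spots averaged. Probes were named by transcript accession through the RefSeq gene table of TAIR10.1 (34348 of 43603 matched); since the array grid names TAIR10, no coordinates are given. The brightest probe of a gene was used if well above background on at least 5 arrays. The gamma effect was fitted with limma 3.58.1 under R 4.3.3 (two-sided, experiment as a block, Benjamini-Hochberg over 23666 genes, threshold 0.05). A second fit let the gamma effect differ between periods. The fits were tested on simulated data. The pairing comes from the run in the titles: deviations from group means correlated within experiments at 0.562 to 0.894 across genes. Between gamma and mock arrays of different experiments the highest correlation was 0.460. Since the arrays of an experiment also shared a slide and a scan, these values cannot tell the run from the slide.

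The members and lists were chosen with earlier results of these data known. Members given array by array were those past the threshold, the 8 largest changes, the 3 brightest, those with probes that differ by over 0.5, and 2 runs of neighbours; XTH20 and XTH23 were added after their values were seen. Of each list, the 2 genes with the smallest adjusted p are named. The files used here give no probe sequences, and none are shown. The files hold the median and not the mean spot signal, so the median was used for normexp (offset 50). The number of arrays limits the precision.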

Additional observations from a re-analysis of the deposited data

Results flagged for a closer look

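In 3 of 58 sets of 5 values (29 genes, gamma and mock), 1 array stood far from the other 4, where chance marks about 5% of such sets. XTH15 had a relative signal of 21.3 on the mock array of experiment 2, where the next highest mock array had 1.48. XTH5 had 0.573 on the same mock array, with the next at 0.291. XTH28 had 3.23 on the mock array of experiment 1, with the next at 2.26. For XTH5 and XTH15 the array raised the size of the fall, which was -0.61 and -0.82 without experiment 2, and for XTH28 it lowered the rise, which was 0.59 without experiment 1.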

How the results depend on the processing

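Besides XTH21, the 2 calls among XTH genes were 4 with the slide as a random block in place of the fixed experiment block (XTH6 and XTH9 added), 1 with normexp, 1 with quantile normalisation, 0 without a filter (with more genes tested) and 0 with no replicate block; leaving out 1 experiment gave 0 to 3. With XTH21, whose calls are no support, the 3 became 5, 2, 2, 1 and 0, and 0 to 4. The single call among listed genes was PLT1, which entered through its mock arrays, so its call is no support. Where all arrays had to be well above background the single call was BGLC3 instead. That count of 1 became 3 with the random slide block, 3 with normexp, 2 with quantile normalisation, 0 without a filter, 0 with no replicate block and 0 to 3 on leaving out 1 experiment. Over all genes the 949 calls became 1921, 328 without a filter and 142 with no replicate block, and 181 to 1021 on leaving out 1 experiment. The 0 interaction calls became 2 without experiment 1, XTH15 and XTH20, where experiment 2 alone stands for the earlier period, so that the range was 0 to 2. The cause of these changes was not tested. XTH5 lost its call with normexp and quantile normalisation (limma adjusted p = 0.0544 in each) and without a filter (0.102), and XTH28 lost it without a filter (0.0612). XTH21 is described only, since a low value was what chose the family. Its estimate was below 0 under all alternatives that included it, at -0.71 with the mean of its probes and -0.85 with normexp. The added offset of normexp shrinks changes of dim genes by construction. Where all arrays had to be well above background, XTH21 did not enter the fit. Apart from the mean of probes, each alternative used its brighter probe, while the other probe alone gave 0.33. On leaving out 1 experiment, XTH24 lay between -0.48 and 0.085, XTH12 between -0.032 and 0.17 and XTH13 between -0.019 and 0.28, each changing sign without experiment 2, where XTH24 was 0.085, XTH12 -0.032 and XTH13 -0.019.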
